A study of Homo sapiens with 16 samples.

Results

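The comparison described here holds 4 of the 16 libraries of the series: 6T-CEM cells with the control hairpin sh-NC, 2 libraries at day 10 set against 2 at day 5. The 4 libraries were chosen by cell line, hairpin and day alone, and no measured value entered the choice. 6T-CEM is labelled as T-ALL cells, that is, T-cell acute lymphoblastic leukaemia, and nothing in the labels says that these 4 libraries carry a knockdown, a drug or any agent other than the control shRNA. The 2 comparisons set beside it are 6T-CEM with sh-SH2D1A, a hairpin against the adaptor gene SH2D1A, at the same days 5 and 10, and Jurkat, a second T-ALL line, with sh-NC at days 8 and 10, with 2 libraries per group. What happened at day 0 is not stated in the labels. Nothing says either whether the 2 libraries of a group came from separate cultures, so a p-value here reflects how far these particular libraries differ from each other, which may be a technical spread. The values of day 5 and of day 10 stand in separate deposited tables, so the day and anything else that differed between those tables cannot be told apart.

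As background, cells that run short of oxygen stabilise the transcription factor HIF1A, which binds hypoxia response elements and raises genes for glucose uptake, glycolysis, lactate export and mitophagy, while PDK kinases hold pyruvate back from the mitochondria. MYC raises the genes for rRNA transcription, pre-rRNA processing and nucleotide synthesis from which ribosomes are built. Both factors are well studied in leukaemic T cells, in which MYC is a target of NOTCH1 signalling.

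Each of the 4 libraries holds between 27942231 and 31064535 counts, and values are given as CPM, the counts of a gene scaled to a common library size. For a gene with no count the upper limit of 3 counts is 0.0966 to 0.107 CPM, a limit of counting error alone. All 15 T lineage markers of a fixed list, among them CD3D, CD3E, LCK and BCL11B, were above 1 CPM in every one of the 4 libraries, with a summed level of 2272 and 2365 CPM at day 5 and 2668 and 2748 CPM at day 10. Under 1 CPM in all 4 libraries were 8 of 12 B cell markers, 11 of 13 myeloid markers, 9 of 11 erythroid markers, 8 of 10 epithelial markers and 6 of 9 fibroblast markers. The 4 day 5 libraries of 6T-CEM stood apart from the other 12 libraries of the series: genes whose transcripts have a GC share over 54% held 19.4 to 24.6% of their counts, against 30.3 to 33.7% elsewhere, and cytosolic ribosomal protein genes held 2.21 to 2.39%, against 3.63 to 5.77%. RPL41, which encodes the shortest protein of the large ribosomal subunit, lay between 84.0 and 133.4 CPM in those 4 libraries and between 581 and 898 CPM in the other 12. CPM values below are scaled by TMM (trimmed mean of M values). The RPL41 and marker values above are also scaled rather than taken per library total, and differ a little from those below.

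Of 19620 genes tested, 8808 (44.9%) differed between day 10 and day 5 at an adjusted p under 0.05 (edgeR quasi-likelihood test, Benjamini-Hochberg adjustment). At day 10, 4487 genes (22.9%) were higher and 4321 (22.0%) lower. A change of at least 2-fold was found in 1433 of the higher and 831 of the lower genes. The median log2 change of all tested genes was 0.02. The direction moved with base composition: the median log2 change was -0.64 over the 1045 genes with a GC share of at most 38%, of which 58.5% fell and 2.11% rose, and 0.50 over the 1862 genes with a GC share above 62%, of which 47.2% rose and 5.21% fell. For that reason each list below is given with a second fit, chosen after seeing the data, in which each library was adjusted for transcript length and GC share. In that fit 3551 of 18280 genes (19.4%) were higher and 3706 (20.3%) lower, and 4993 calls were shared with the same sign. Whether the GC share of the day 5 libraries is a property of the cells or of the library preparation was not tested. The gene lists were chosen with earlier results of these data known. Counts and shares of list members below are therefore descriptive and no independent test. They are to be read beside the shares of all genes above.

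**Figure D1:**
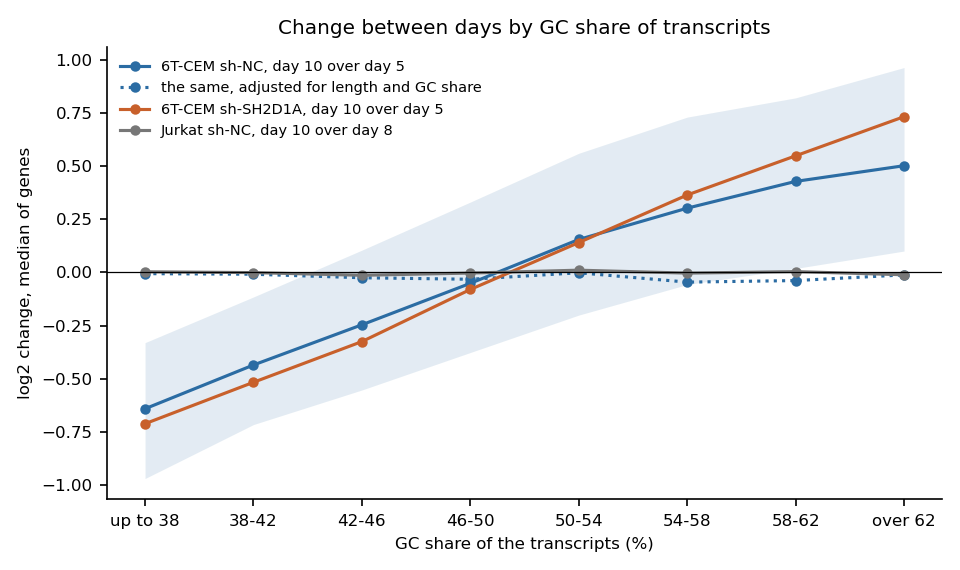
Median log2 change of genes (vertical axis) by the GC share of their transcripts in percent (horizontal axis, 8 ranges). Solid lines are 6T-CEM sh-NC (blue), 6T-CEM sh-SH2D1A (orange) and Jurkat sh-NC (grey), the dotted line is the adjusted fit of 6T-CEM sh-NC, and the shaded band is the range from the first to the third quartile of genes in 6T-CEM sh-NC. Both 6T-CEM comparisons climb from -0.64 and -0.71 in the lowest range to 0.50 and 0.73 in the highest, while Jurkat stays between -0.01 and 0.01.

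Against a threshold of 1.5-fold in place of no change (edgeR's glmTreat), 2095 genes were called, 1287 of them higher (6.56% of the genes tested) and 808 lower (4.12%), among them fewer of each list described below: 15 hypoxia, 6 glycolysis and 12 mitosis genes were lower, and 22 ribosome assembly, 43 ribosomal protein, 34 respiratory chain, 13 ATF4, 6 heat shock and 3 NRF2 genes were higher.

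Genes of the hypoxia response were lower at day 10 than at day 5, and none of the list was called higher. Of 24 members tested, 20 fell (83.3%, against 22.0% of all genes tested) and the median log2 change was -1.10, with 20 falling and a median of -1.04 in the fit adjusted for length and GC share. P4HA1, a prolyl hydroxylase subunit needed for collagen folding (chromosome 10, 73007217 to 73096974, minus strand, GENCODE 29 on GRCh38), was at 139.6 and 147 CPM at day 5 and 36.1 and 33.9 CPM at day 10. Its log2 fold change was -2.03 ± 0.07 (SE, n = 2 per group; adjusted p = 3.35e-06) and the libraries of the 2 days did not overlap. PDK1, the kinase that inactivates pyruvate dehydrogenase, was at 113 and 122 CPM at day 5 and 34.4 and 33.1 CPM at day 10, a change of -1.80 ± 0.07 on the log2 scale. BNIP3L and BNIP3, which mark mitochondria for mitophagy, were at 403 and 418 CPM at day 5 and 132 and 124 CPM at day 10 and at 172 and 168 CPM at day 5 and 59.7 and 64.5 CPM at day 10. In each of these genes the libraries of the 2 days did not overlap, and the 2 libraries of a day lay close together.

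Secreted and surface products of the same list fell as well. CA9, a carbonic anhydrase of the cell surface that buffers acid, was at 14.4 and 11.6 CPM at day 5 and 2.02 and 2.35 CPM at day 10 (log2 fold change -2.57 ± 0.22, adjusted p = 8.22e-05). ADM, the peptide hormone adrenomedullin, was at 8.92 and 8.15 CPM at day 5 and 1.27 and 1.88 CPM at day 10, and VEGFA, the angiogenic growth factor, at 25.2 and 23.2 CPM at day 5 and 14.6 and 16.1 CPM at day 10, which gave log2 changes of -2.43 ± 0.26 and -0.66 ± 0.13. Among the regulators, the repressor BHLHE40 was at 28.7 and 29.4 CPM at day 5 and 6.27 and 4.87 CPM at day 10, a change of -2.38 ± 0.16. EGLN1, a prolyl hydroxylase that marks HIF proteins for degradation, fell by 1.07. HIF1A, whose protein rather than whose transcript responds to oxygen, was at 180.5 and 198 CPM at day 5 and 114 and 119 CPM at day 10, and its log2 change of -0.70 ± 0.06 shrank to -0.08 ± 0.04 in the adjusted fit, which ended the call. The nuclear receptor RORA fell by 1.79 and the histone demethylase KDM3A by 1.18. Of the 4 members that did not pass, ANKRD37 was at -0.45 ± 0.26 but was called lower in the adjusted fit (-0.84 ± 0.25), so the 20 falls there are not the same 20 genes. EPAS1, which encodes HIF2A, was at -0.13 ± 0.31, with 2.97 and 5.26 CPM at day 5 and 4.15 and 3.37 CPM at day 10. Without the second day 5 library or the second day 10 library the sign of EPAS1 turned.

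Promoter stretches of 4 of these members are shown because the members fell together and these hold the letters of the hypoxia response element. The letters ACGTG, the core of that element, were searched on both strands of the 250 bases before the RefSeq start (build GRCh38.p14), where they read CACGT on the opposite strand and are also part of the E-box CACGTG. They occurred in 11 of the 21 hypoxia promoters found in the table (52.4%; 21 of 24 members matched), in 22.9% of the promoters of 11810 tested genes and in 18.7% of all 27303 promoters. The same letters were in 8 of 21 glycolysis promoters (38.1%) and in 15 of 34 ribosome assembly promoters (44.1%), a list that rose. The variant GCGTG was in 10 of the 21 hypoxia promoters (47.6%), near the 44.2% of the promoters of tested genes, in 7 of 21 glycolysis promoters (33.3%), in 19 of 34 ribosome assembly promoters (55.9%) and in 31.9% of all. Capitals mark each match, and each stretch lies outside the annotated exons of protein-coding transcripts.
AK4, an adenylate kinase of the mitochondrial matrix, chr1:65147420-65147504, plus strand: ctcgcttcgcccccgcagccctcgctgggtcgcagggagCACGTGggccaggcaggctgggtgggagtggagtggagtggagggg
FAM162A, a mitochondrial protein, chr3:122384058-122384142, plus strand: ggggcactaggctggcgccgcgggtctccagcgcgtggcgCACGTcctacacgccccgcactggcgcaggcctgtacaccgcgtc
DDIT4, an inhibitor of mTORC1, chr10:72273759-72273843, plus strand: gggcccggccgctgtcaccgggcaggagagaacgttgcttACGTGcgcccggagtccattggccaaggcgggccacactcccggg
INSIG2, which retains SREBP in the endoplasmic reticulum, chr2:118088336-118088420, plus strand: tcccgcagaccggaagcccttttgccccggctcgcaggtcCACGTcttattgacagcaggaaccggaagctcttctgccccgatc
AK4 was at 97.7 and 97.2 CPM at day 5 and 37.2 and 33.3 CPM at day 10 (log2 fold change -1.47 ± 0.08). FAM162A was at 124 and 138 CPM at day 5 and 52.9 and 51.6 CPM at day 10, DDIT4 at 93.7 and 80.5 CPM at day 5 and 44.4 and 44.4 CPM at day 10 and INSIG2 at 60.9 and 64.4 CPM at day 5 and 34.8 and 33.02 CPM at day 10. All 4 fell, by between 0.89 and 1.47 on the log2 scale. A match describes these letters only, and no binding was measured.

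Glycolytic genes fell too, by smaller steps. Of 23 members, 17 fell (73.9%) and 2 rose, with a median of -0.38; in the adjusted fit 20 fell, 2 rose and the median was -0.67. ALDOC, the brain-type aldolase and a HIF target, moved most, from 92.2 and 92.4 CPM at day 5 to 20.05 and 20.9 CPM at day 10 (-2.17 ± 0.07, adjusted p = 3.35e-06). LDHA, which reduces pyruvate to lactate, was at 1542 and 1569 CPM at day 5 and 772 and 781 CPM at day 10 (-1.0 ± 0.04), and PGK1 at 1606 and 1572 CPM at day 5 and 826 and 832 CPM at day 10 (-0.94 ± 0.04). Among the abundant enzymes ENO1 was at 2562 and 2424 CPM at day 5 and 1511 and 1487 CPM at day 10, while GAPDH changed less, from 3579.8 and 3323 CPM to 2817 and 2834 CPM. The regulator PFKFB4, a HIF target that sets the level of fructose 2,6-bisphosphate, fell by 1.13 and the glucose transporter SLC2A3 by 0.82. The members that rose were LDHB, the lactate dehydrogenase subunit that favours lactate use, at 0.24 ± 0.04, and the phosphofructokinase PFKP at 0.23 ± 0.07, which turned to -0.14 ± 0.04 in the adjusted fit. The call of PFKP was also lost without either day 10 library (adjusted p = 0.112 and 0.0635) and its change was 0.15 without the second day 5 library. The other 4 members did not pass. GBE1, the glycogen branching enzyme, and WSB1, a ubiquitin ligase subunit, both of which are known HIF targets outside these lists, were among the 15 largest falls of the whole comparison: GBE1 was at 98.8 and 106 CPM at day 5 and 26.5 and 26.02 CPM at day 10 and WSB1 at 536 and 557 CPM at day 5 and 147 and 140.3 CPM at day 10.

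**Figure D2:**
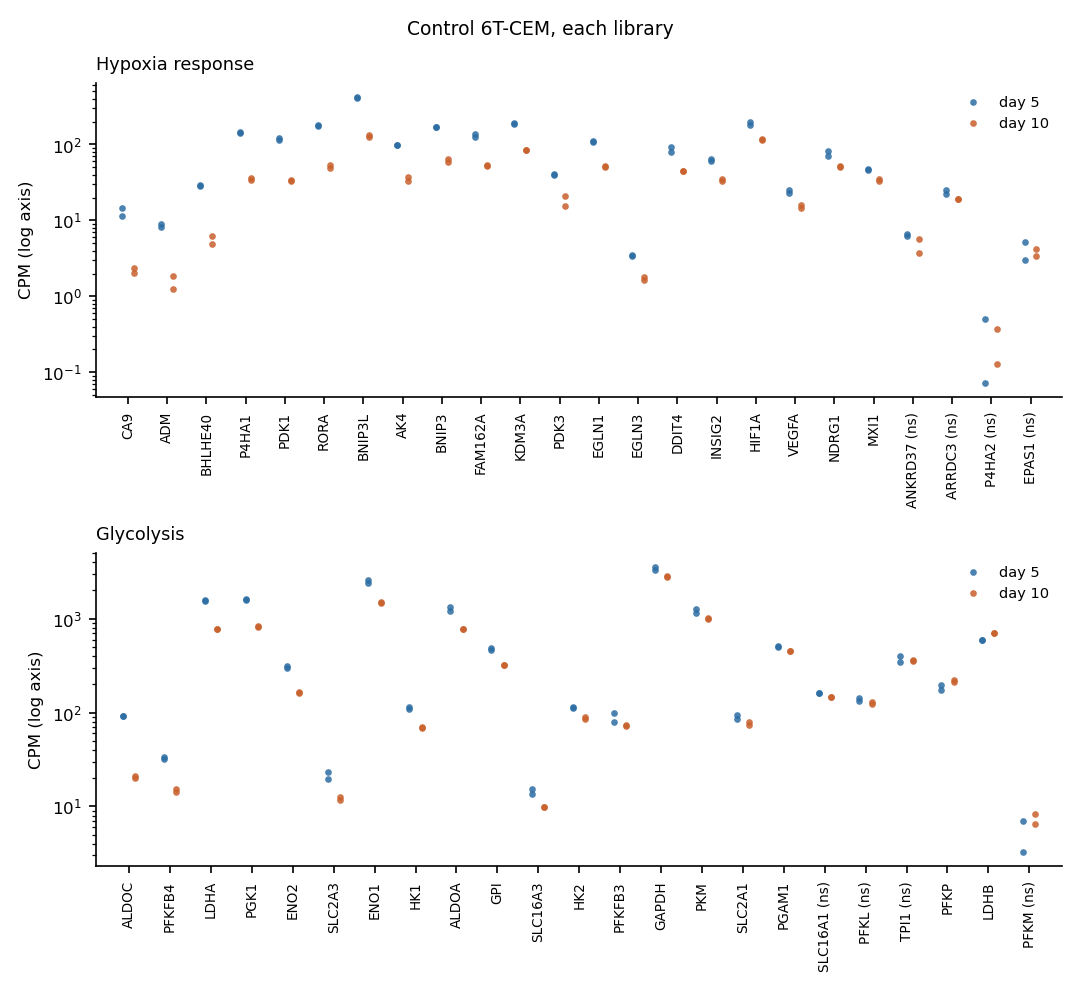
CPM of each member of the hypoxia (top) and glycolysis (bottom) lists on a log axis, one point per library, with day 5 in blue and day 10 in orange and members ordered by their log2 change; (ns) marks members that did not pass. For P4HA1, PDK1, BNIP3L, ALDOC, LDHA and PGK1 both day 10 points lie below both day 5 points, while the points of EPAS1 overlap.

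Genes that build ribosomes rose. Of 43 members of the list for ribosome assembly and nucleotide supply, 39 rose (90.7%, against 22.9% of all genes tested), 1 fell and the median log2 change was 0.81; in the adjusted fit 42 rose, none fell and the median was 0.78. NME1, a nucleoside diphosphate kinase, was at 14.6 and 21.6 CPM at day 5 and 75.4 and 84.6 CPM at day 10 (2.15 ± 0.16, adjusted p = 5.00e-05), and it overlaps the read-through gene NME1-NME2 on the same strand, so counts of the pair could be split. RRS1 and RRP12, needed for ribosome export and maturation, were at 7.502 and 6.69 CPM at day 5 and 29.4 and 28.8 CPM at day 10 and at 30.1 and 22.7 CPM at day 5 and 91.1 and 89.7 CPM at day 10. MYBBP1A, a nucleolar protein, was at 53.9 and 48.9 CPM at day 5 and 149 and 156 CPM at day 10, a log2 change of 1.57 ± 0.07. The libraries of the 2 days did not overlap in any of these 4 genes.

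The abundant nucleolar proteins moved by less. NCL, nucleolin, was at 456 and 456 CPM at day 5 and 831 and 833 CPM at day 10 (0.87 ± 0.04), and NPM1, nucleophosmin, at 333 and 343 CPM at day 5 and 469.6 and 479 CPM at day 10 (0.49 ± 0.04). The box C/D proteins NOP56 and FBL, which guide rRNA methylation, rose by 0.87 and 0.81, and GAR1 and DKC1 of the box H/ACA particles by 1.49 and 0.63. RNA polymerase I subunits POLR1A, POLR1B and POLR1C rose by 0.88, 0.60 and 0.96, while POLR1E did not pass (0.13 ± 0.09). In pyrimidine synthesis CAD, UMPS and DHODH rose by 0.81, 0.83 and 0.80. In purine synthesis IMPDH2, ATIC and GART rose by 0.63, 0.46 and 0.32, whereas PPAT, the first enzyme of that route, fell by 0.22 and turned to 0.36 ± 0.05 in the adjusted fit, and its call was lost without either day 10 library (adjusted p = 0.147 and 0.187). ODC1 and SRM, which make the polyamines putrescine and spermidine, rose by 0.81 and 0.98.

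MYC itself was at 147 and 148 CPM at day 5 and 327 and 337 CPM at day 10 (1.17 ± 0.05, adjusted p = 6.49e-06), so the libraries of the 2 days were separated by more than 2-fold. Its family member MYCN rose by 0.67 and the antagonist MXD1 fell by 0.93. Over the 12 tested genes of the MYC network 7 rose and 2 fell, with 5 and 4 in the adjusted fit. The E-box CACGTG, the letters bound by MYC with MAX, was found in 6 of the 34 ribosome assembly promoters in the table (17.6%; 34 of 43 members matched), against 8.79% of the promoters of tested genes and 6.49% of all. It was also found in the lists that fell, in 4 of 21 hypoxia promoters (19.0%) and 3 of 21 glycolysis promoters (14.3%). It is shown for 2 members that rose.
SRM, spermidine synthase, chr1:11060172-11060257, minus strand: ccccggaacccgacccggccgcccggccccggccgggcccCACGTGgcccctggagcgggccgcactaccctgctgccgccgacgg
UTP20, a component of the small subunit processome, chr12:101280055-101280104, plus strand: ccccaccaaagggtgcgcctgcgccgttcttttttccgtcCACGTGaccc
SRM was at 63.2 and 67.3 CPM at day 5 and 126 and 132 CPM at day 10, and UTP20 at 65.9 and 75.9 CPM at day 5 and 106 and 101 CPM at day 10. The capitals again mark the letters searched, and a match says nothing on whether MYC was bound.

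Cytosolic ribosomal protein genes rose in most cases. Of 79 tested, 72 rose (91.1%) and 2 fell, RPL21 and RPL17, with a median of 0.79; in the adjusted fit 68 rose, 6 fell and the median was 0.55. The call of RPL17 was lost without either day 10 library (adjusted p = 0.0608 and 0.128), and its change was -0.13 without the second day 5 library. RPS27 of the small subunit was at 22.4 and 30.7 CPM at day 5 and 256 and 263 CPM at day 10 (3.29 ± 0.13). RPL38 was at 16.1 and 18.8 CPM at day 5 and 149 and 163 CPM at day 10, RPL36 at 38.8 and 41.1 CPM at day 5 and 320.3 and 349 CPM at day 10 and RPL41 at 85.1 and 88.3 CPM at day 5 and 591 and 594 CPM at day 10. RPL4, one of the longer members, did not pass at 0.09 ± 0.04 when all genes were tested, and was called higher in the adjusted fit (0.14 ± 0.04). The median transcript of the list has 726 bases, and only 5 members have transcripts of at least 1500 bases. When the 12521 genes with such transcripts were tested alone, 3224 (25.7%) were higher and 3353 (26.8%) lower, and all 5 ribosomal protein genes rose, RPL4 by 0.14. Ribosomal protein genes have many processed pseudogenes that can take their reads. The same list was lower in all 4 day 5 libraries of 6T-CEM than in any of the other 12 libraries.

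Nuclear genes of the respiratory chain went the same way, with 56 of 77 higher (72.7%), 3 lower and a median of 0.68; in the adjusted fit 53 were higher and 6 lower, with a median of 0.49. ATP5ME, a small subunit of the ATP synthase, was at 1.89 and 2.45 CPM at day 5 and 22.8 and 21.2 CPM at day 10 (3.34 ± 0.19), NDUFS6 of complex I at 8.65 and 8.91 CPM at day 5 and 41.7 and 40.3 CPM at day 10 and COX7C of complex IV at 33.99 and 30.5 CPM at day 5 and 104 and 109 CPM at day 10. The transcripts are short as well, with a median of 753 bases. Among the 15 members of at least 1500 bases 8 rose and 1 fell when such genes were tested alone, against the 25.7% and 26.8% above. SDHA, a longer member, did not pass (-0.16 ± 0.06) but was called lower in the adjusted fit (-0.45 ± 0.05), with DESeq2's size factors, with all 16 libraries in the fit and without the second day 5 library. Mitochondrially encoded genes did not follow: 3 of 15 rose and 8 fell, with a median of -0.13 (5 and 8 adjusted), and the falls numbered 2 and 3 without one or the other day 10 library. The 3 that rose were MT-ND3 (1.99 ± 0.05), MT-ATP8 (1.30 ± 0.04) and MT-ND4L (0.46 ± 0.04), whose genes are the 3 shortest of the list at 346, 207 and 297 bases. MT-CO1, the catalytic subunit of complex IV, was at 18612 and 19121 CPM at day 5 and 12243 and 12199 CPM at day 10 and fell by 0.63. The part of transcript length in these rises beyond the adjusted fit was not tested.

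**Figure D3:**
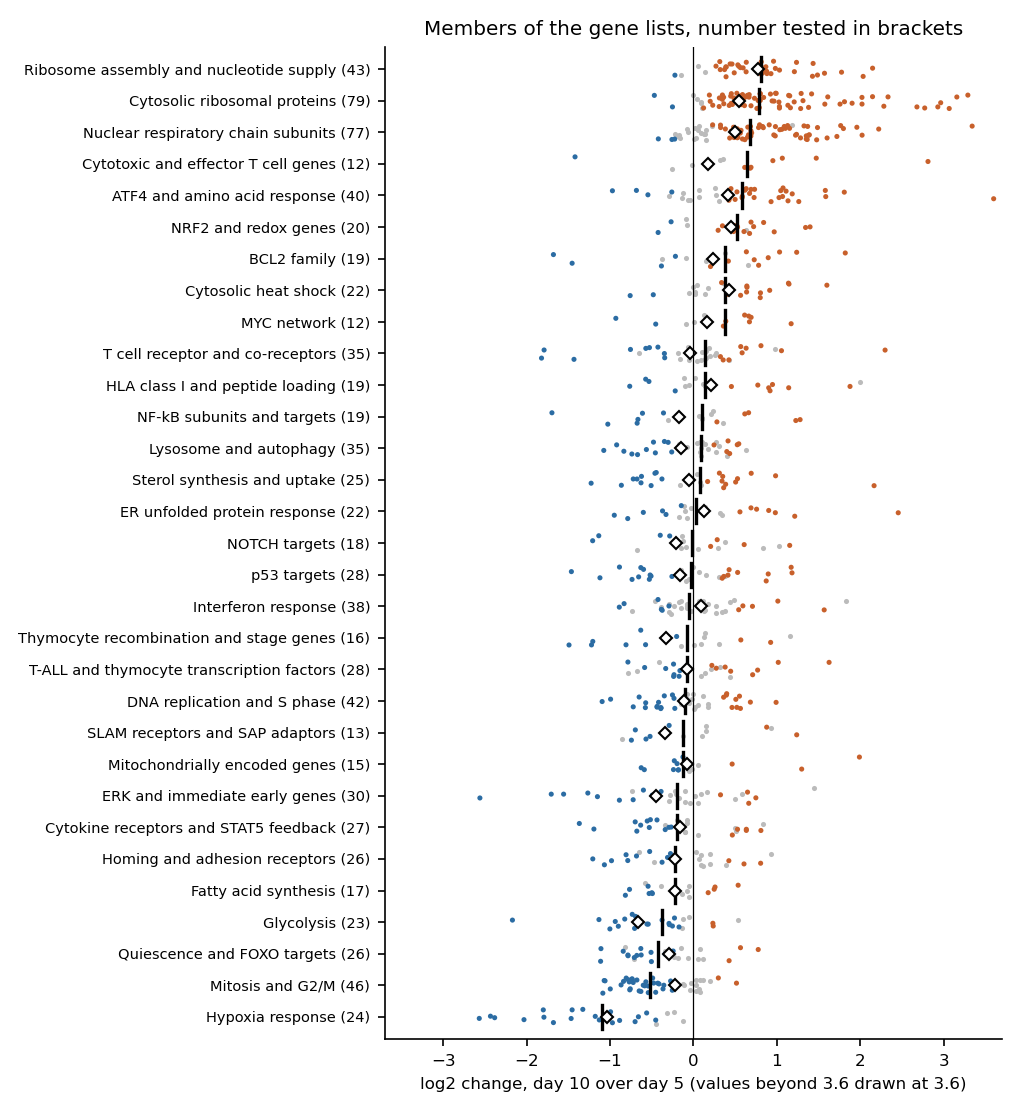
Log2 change of each tested member (points) of 31 gene lists, drawn at 3.6 where a value is larger, with the number tested in brackets; orange points rose, blue points fell and grey points did not pass. The black bar is the median and the open diamond the median in the fit adjusted for transcript length and GC share; hypoxia lies lowest at -1.10 and ribosome assembly highest at 0.81.

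Genes of mitosis were lower at day 10. Of 46 members, 32 fell (69.6%) and 2 rose, with a median of -0.52; in the adjusted fit 28 fell, 3 rose and the median was -0.22. The median GC share of this list is 43.2%, in the range where more genes fell than rose. ANLN, anillin of the cleavage furrow, was at 251 and 281 CPM at day 5 and 124 and 127 CPM at day 10 (-1.09 ± 0.06, and -0.60 ± 0.04 adjusted). KIF23, the motor of the central spindle, was at 133 and 147 CPM at day 5 and 66.2 and 68.2 CPM at day 10 (-1.06 ± 0.07, and -0.68 ± 0.05 adjusted). MKI67, the proliferation marker Ki-67, was at 1309 and 1365 CPM at day 5 and 986 and 1022 CPM at day 10, a change of -0.41 ± 0.04. TOP2A fell by 0.78, BUB1 by 0.74 and CDK1 by 0.81, and the last shrank to -0.16 with adjustment. The anaphase activator CDC20 and the survivin gene BIRC5 rose, by 0.30 and 0.52, and CDC20 turned to -0.12 ± 0.05 in the adjusted fit. The other 12 did not pass.

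**Figure D4:**
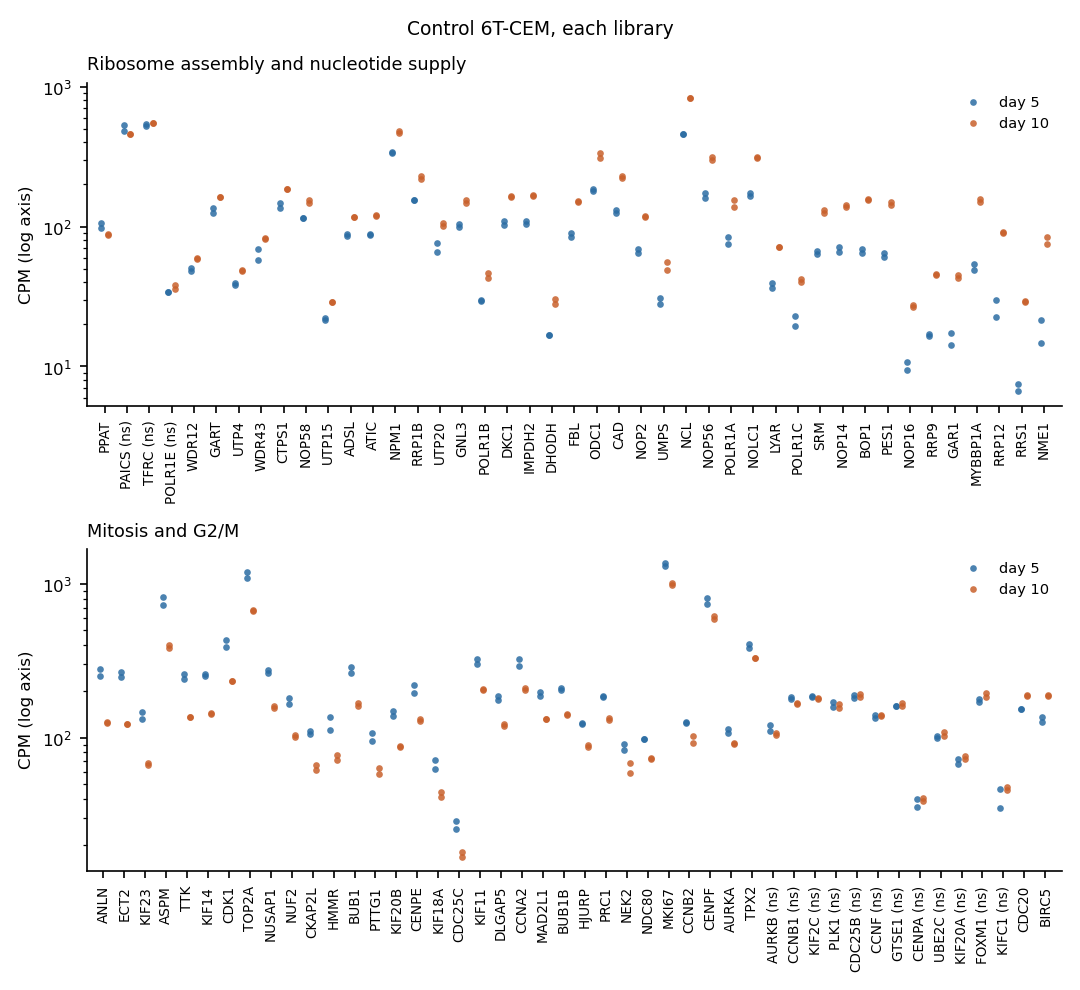
CPM of each member of the lists for ribosome assembly and nucleotide supply (top) and for mitosis (bottom) on a log axis, one point per library, with day 5 in blue and day 10 in orange; (ns) marks members that did not pass. NCL, NME1 and RRS1 show both day 10 points above both day 5 points, and ANLN, KIF23 and TOP2A show the reverse.

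S phase genes went both ways, with 10 of 42 higher (23.8%) and 16 lower (38.1%) and a median of -0.10 (9 and 19 adjusted). Of all genes tested 22.9% were higher and 22.0% lower (19.4 and 20.3% adjusted). Of the MCM helicase, MCM2, MCM3 and MCM7 rose by 0.52, 0.36 and 0.68. CCNE2, an activator of CDK2, fell by 1.09, the repressor E2F8 by 0.99 and RRM2, a subunit of ribonucleotide reductase, by 0.58. Genes linked to quiescence and FOXO factors fell rather than rose, with 13 of 26 lower (50%) and 3 higher (11.5%), or 12 and 0 adjusted. Fewer of them were lower without the first day 10 library. CCNG2 was at 136 and 155 CPM at day 5 and 65.4 and 68.8 CPM at day 10 and SESN3, a brake on mTORC1, at 138 and 149 CPM at day 5 and 66.97 and 66.2 CPM at day 10. FOXO1 fell by 0.84 and the pocket protein RBL2 by 0.78.

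Genes of amino acid supply rose in most cases. In the ATF4 list 26 of 40 members rose (65%) and 4 fell, with a median of 0.58; in the adjusted fit 25 rose and 4 fell, with a median of 0.42. ATF4, the transcription factor of the amino acid response, was at 267 and 269 CPM at day 5 and 443 and 445 CPM at day 10 (0.73 ± 0.04). SLC7A5 and SLC3A2, the 2 chains of the leucine transporter, were at 189.9 and 167 CPM at day 5 and 524 and 544 CPM at day 10 and at 85.8 and 80.05 CPM at day 5 and 182 and 182 CPM at day 10. The proline enzyme PYCR1 was at 22.1 and 19.4 CPM at day 5 and 72.2 and 73.3 CPM at day 10 (1.81 ± 0.09). In serine synthesis PHGDH, PSAT1 and PSPH rose by 0.93, 0.50 and 1.07, and asparagine synthetase, ASNS, by 1.03. DDIT4 and the glutamine carrier SLC38A2 fell, and the stress factors DDIT3 (0.27 ± 0.21) and ATF3 (-0.29 ± 0.17) did not pass, although ATF3 was called lower in the adjusted fit (-0.47 ± 0.15).

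Chaperone and redox genes rose with them. Of 22 heat shock genes 12 rose (54.5%, against 22.9% of all genes tested) and 2 fell (9.09%, against 22.0%), or 14 and 3 adjusted. HSPA8, the constitutive HSP70, was at 582 and 609 CPM at day 5 and 1316 and 1320.1 CPM at day 10 (1.15 ± 0.04). HSPE1 and HSPD1, the mitochondrial chaperonins, rose by 1.6 and 0.57. Of 20 NRF2 and redox genes 15 rose (75%) and 2 fell (10%), with 11 and 1 adjusted. TXNRD1 was at 285 and 286 CPM at day 5 and 419.6 and 399 CPM at day 10, PGD rose by 0.69 and PRDX1 by 0.50. The unfolded protein list was divided, with 7 of 22 higher (31.8%) and 6 lower (27.3%), or 10 and 4 adjusted. Its chaperones HSPA5, CALR and SDF2L1 rose by 0.69, 0.90 and 2.46, and EDEM1, which sends misfolded glycoproteins to degradation, fell by 0.95.

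Sterol genes had no common direction, while fatty acid genes fell more often than they rose. In sterol synthesis and uptake 11 of 25 members rose (44%) and 10 fell (40%), with a median of 0.08 (6 and 9 adjusted). Of all genes tested 22.9% rose and 22.0% fell. STARD4, a sterol carrier, was at 129.6 and 148 CPM at day 5 and 60.6 and 58.1 CPM at day 10 (-1.23 ± 0.08), and INSIG1 and FDFT1 fell by 0.62 and 0.46. PMVK, phosphomevalonate kinase, was at 5.31 and 4.02 CPM at day 5 and 20.8 and 21.1 CPM at day 10 (2.17 ± 0.18), and NSDHL rose by 0.98. Of 17 fatty acid genes 7 fell (41.2%) and 4 rose (23.5%). In the adjusted fit 10 fell (58.8%, against 20.3% of all genes) and 3 rose (17.6%, against 19.4%). The elongase ELOVL5 was at 599 and 614 CPM at day 5 and 352 and 337 CPM at day 10. SCD fell by 0.50 and ACACA rose by 0.54.

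T cell genes divided as well, close to the shares of all genes: 9 of 35 T cell receptor genes and co-receptors rose and 9 fell (25.7% each; 8 and 11 adjusted). CD4, the co-receptor for HLA class II, was at 23.7 and 20.3 CPM at day 5 and 6.51 and 6.203 CPM at day 10 (-1.79 ± 0.16, adjusted p = 8.76e-05). THEMIS, a regulator of thymic selection, was at 37.3 and 37.99 CPM at day 5 and 10.7 and 10.6 CPM at day 10 and RASGRP1, which couples the receptor to RAS, at 109 and 117 CPM at day 5 and 38.8 and 44.8 CPM at day 10. CD3D was at 112 and 112 CPM at day 5 and 191 and 203 CPM at day 10 and CD247 at 46.2 and 40.3 CPM at day 5 and 61.8 and 66.5 CPM at day 10, both higher at day 10. TRBC1, a constant region of the receptor beta chain, was called higher (2.30 ± 0.77, adjusted p = 0.04197) but its day 5 libraries disagreed, at 43.7 and 2.996 CPM against 117 and 115 CPM at day 10. The call was lost in the adjusted fit (1.79 ± 0.68) and by DESeq2 (adjusted p = 0.214). The log2 change was 5.26 without the first day 5 library and 1.41 without the second.

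SH2D1A encodes SAP, the adaptor of SLAM receptors, and was at 188 and 198 CPM at day 5 and 159 and 156 CPM at day 10. Its fall of 0.29 (adjusted p = 0.00275) took place without a hairpin against it. CHI3L2, a chitinase-like secreted protein, was at 345 and 337 CPM at day 5 and 211 and 206 CPM at day 10, a log2 change of -0.71 ± 0.05 (adjusted p = 2.76e-05). Both genes kept their direction and their call in the adjusted fit, at -0.38 ± 0.04 and -0.75 ± 0.04. With sh-SH2D1A the change of CHI3L2 did not pass (-0.16 ± 0.11), nor did the difference between the hairpins (0.56 ± 0.10, adjusted p = 0.126). In Jurkat with sh-NC CHI3L2 rose by 0.60 ± 0.07 (adjusted p = 0.00339). The difference between the lines, Jurkat minus 6T-CEM, was 1.32 ± 0.08 (adjusted p = 3.41e-06). Of 13 SLAM receptors and SAP adaptors 5 fell (38.5%, against 22.0% of all genes tested) and 2 rose (15.4%, against 22.9%), or 6 and 2 adjusted. CD84 was at 117 and 115 CPM at day 5 and 70.2 and 72.7 CPM at day 10 and SLAMF6 at 30.01 and 32.9 CPM at day 5 and 18.4 and 19.1 CPM at day 10, both lower at day 10.

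Of 30 ERK and immediate early genes 10 fell (33.3%, against 22.0% of all genes tested) and 4 rose, with 13 and 2 in the adjusted fit, and the other 16 did not pass. Levels at day 5 differed among the named members. FOS was at 6.15 and 6.03 CPM at day 5 and 1.27 and 0.795 CPM at day 10 (-2.56 ± 0.29), EGR1 at 17.6 and 14.3 CPM at day 5 and 5.11 and 5.73 CPM at day 10 (-1.56 ± 0.18) and JUN at 44.4 and 36.6 CPM at day 5 and 18.03 and 18.4 CPM at day 10 (-1.15 ± 0.12). CD69, the early activation antigen that keeps lymphocytes in tissue, was at 20.5 and 21.5 CPM at day 5 and 6.85 and 6.01 CPM at day 10. CD40LG, the helper T cell ligand, was at 7.84 and 9.13 CPM at day 5 and 1.71 and 1.65 CPM at day 10 and lay among the 15 largest falls of the comparison. The ERK feedback inhibitor SPRY1 fell by 0.72.

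Thymocyte genes were lower more often than higher with sh-NC, with 7 of 16 lower (43.8%) and 2 higher (12.5%), or 8 and 3 adjusted. Of all genes tested 22.0% were lower and 22.9% higher. Fewer thymocyte genes were lower without the second day 10 library. With sh-SH2D1A 4 of 16 were lower and 3 higher (6 and 3 adjusted). The median there was 0.06 (0.10 adjusted), against -0.07 with sh-NC (-0.33 adjusted). Calls in the adjusted fit were still more often lower than higher with sh-SH2D1A. The difference between the hairpins, sh-SH2D1A minus sh-NC, was called for 0 of the 16 genes. In the adjusted fit it was called higher for 2 and lower for 0. CD38, a NAD-consuming surface enzyme of thymocytes, was at 99.4 and 103 CPM at day 5 and 37.1 and 34.96 CPM at day 10 (-1.49 ± 0.07), DNTT, the terminal transferase of V(D)J joining, at 8.52 and 9.43 CPM at day 5 and 4.28 and 3.404 CPM at day 10 and CD1E at 56.9 and 65.03 CPM at day 5 and 33.6 and 36.04 CPM at day 10. Among T-ALL and thymocyte transcription factors 8 of 28 rose and 8 fell (7 and 9 adjusted): LEF1 was at 918 and 939 CPM at day 5 and 537 and 541 CPM at day 10 and GATA3 fell by 0.33, while TCF3 and its inhibitor ID3 rose by 0.77 and 1.02. Of 18 NOTCH genes 4 rose and 4 fell (1 and 7 adjusted), with NOTCH3 at 111 and 96.2 CPM at day 5 and 45.5 and 48.95 CPM at day 10 (-1.14 ± 0.09). Of the transcription factors only 4 were higher without either day 10 library.

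Cytokine, homing and effector genes are given by their counts. In that order 44.4, 38.5 and 8.33% of them fell, where 22.0% of all genes tested fell. The shares that rose were 18.5, 11.5 and 58.3%, where 22.9% of all genes rose. Of 27 cytokine receptor and STAT5 genes 12 fell and 5 rose (10 and 1 adjusted), with 6 lower and 3 higher without the first day 10 library: IL6ST, the shared receptor gp130, was at 54.1 and 59.3 CPM at day 5 and 24.3 and 25.3 CPM at day 10, STAT5B fell by 0.44 and PIM3 rose by 0.81. Of 26 homing and adhesion receptors 10 fell and 3 rose (11 and 3 adjusted), with 6 lower without the second day 10 library: CXCR4, the receptor for CXCL12, was at 332 and 347 CPM at day 5 and 207 and 216 CPM at day 10, the integrin chain ITGA4 at 504 and 559 CPM at day 5 and 304 and 303 CPM at day 10 and CD47 at 812 and 848 CPM at day 5 and 426 and 414 CPM at day 10. Of 12 cytotoxic and effector genes 7 rose and 1 fell (4 and 1 adjusted), but 2 and 4 rose without one or the other day 10 library: EOMES, a T-box factor, was at 35.9 and 29.5 CPM at day 5 and 61.96 and 64.6 CPM at day 10 and CTSW at 7.81 and 8.95 CPM at day 5 and 16.1 and 18.99 CPM at day 10.

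The lists of this paragraph stand beside 22.9% of all genes tested that rose and 22.0% that fell (19.4 and 20.3% adjusted). Of 19 NF-kB genes 5 rose (26.3%) and 6 fell (31.6%), or 3 and 5 adjusted. REL was at -1.03 ± 0.10 and NFKB1 at 0.62 ± 0.07. Of 38 interferon genes 5 rose (13.2%) and 6 fell (15.8%), both under the shares of all genes, or 4 and 4 adjusted. ISG15 was at 1.57 ± 0.13 and PARP14 at -0.89 ± 0.06. Of 19 HLA class I and peptide loading genes 7 rose and 4 fell (6 and 5 adjusted), with B2M at 348 and 366 CPM at day 5 and 217 and 203 CPM at day 10. Of 28 p53 targets 9 rose and 11 fell (6 and 10 adjusted), with TP53INP1 at -1.46 ± 0.08 and AEN at 1.18 ± 0.08. Of 19 BCL2 family genes 9 rose and 4 fell (7 and 3 adjusted), with BCL2L1 at 0.78 ± 0.09 and BAK1 at 1.24 ± 0.18. Of 35 lysosome and autophagy genes 6 rose and 11 fell (1 and 15 adjusted), with LAMP2 at -0.92 ± 0.06 and MAP1LC3B at -0.83 ± 0.07. Of 10 iron genes none rose and 5 fell (1 and 3 adjusted). Of 25 matrix genes 7 rose and 5 fell (6 and 6 adjusted), of 16 replication-dependent histone genes none rose and 1 fell in both fits, and of 3 chitinase genes 1 rose and 1 fell (0 and 1 adjusted). Without the first day 10 library 4 p53 targets rose and 3 iron genes fell, and without the second 3 NF-kB genes, 4 p53 targets and 3 lysosome genes rose and 3 matrix genes fell.

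The largest single changes included genes whose reads can be shared with a neighbour or copy. ZNF497 had no count in either day 5 library and 20.05 and 19.2 CPM at day 10, so with 3 counts taken as the limit in each day 5 library it was at least 186-fold higher, and an unnamed gene overlaps it on the same strand. AS3MT likewise had no count at day 5 and 4.56 and 5.76 CPM at day 10, at least 48.9-fold higher, while the read-through gene BORCS7-ASMT that covers it was at 0 in both day 10 libraries and at least 36.5-fold lower there. ADORA2A rose by 4.19 and overlaps the read-through SPECC1L-ADORA2A, and PTPRCAP, at 0 and 2.96 CPM at day 5 and 44.5 and 43.2 CPM at day 10, overlaps CORO1B and was not called by DESeq2 (adjusted p = 0.168). All day 5 counts of PTPRCAP lie in the second library. BOLA2 and BOLA2B are near-identical copies, and CDRT4, which overlaps a read-through gene, changed by -2.30 ± 0.55, or by -3.66 without the first day 10 library. Over the 73 read-through genes tested, 8 rose and 15 fell, where 22.9% of all genes tested rose and 22.0% fell. Falls were thus no more frequent among read-through genes than among all genes. How the reads of overlapping genes were assigned is not given in the sources used here.

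The other named rises were MXRA8 (3.97 ± 0.30), DPM3 (3.46 ± 0.27), NAA38 (3.44 ± 0.13), MTLN (3.3 ± 0.53) and POLR2L (3.17 ± 0.17), beside ATP5ME, RPS27, RPL38 and RPL36 above. All 5 have a GC share between 56.6 and 66.02%. The other named falls were TRPM5, a cation channel, at 21.8 and 15.1 CPM at day 5 and 1.82 and 2.004 CPM at day 10 (-3.27 ± 0.24), HSD17B13 (-2.65 ± 0.27), SLC44A5 (-2.10 ± 0.20) and B3GAT2 (-2.09 ± 0.42). TRPM5 fell although 63.9% of its transcript bases are G or C, which is in the range where most called genes rose.

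The same interval in 6T-CEM with sh-SH2D1A shares no library with the control comparison but was made from the same 2 tables. There 3721 of 19674 genes (18.9%) were higher and 3286 (16.7%) lower. Of the 4454 genes higher in the control cells and tested in both, 4295 (96.4%) had the same sign and 2977 were called higher, and of the 4240 lower genes 4000 (94.3%) had the same sign and 2611 were called lower. Calls of opposite sign numbered 10 and 13. In the fit adjusted for length and GC share the same-sign shares were 94.3 and 89.4%. Hypoxia genes fell in 16 of 23 and rose in none, ribosome assembly genes rose in 29 of 43 and fell in 1, and mitosis genes fell in 21 of 46 and rose in 4, with a median of -0.26. In the adjusted fit, in which 3291 of 18328 genes (18%) were higher and 2618 (14.3%) lower with sh-SH2D1A, 17 hypoxia genes fell and 1 rose, 42 ribosome assembly genes rose, and the mitosis genes had no common direction, with 9 lower, 8 higher and a median of 0.02. P4HA1 changed by -2.05 ± 0.11, LDHA by -1.12 ± 0.09, MYC by 0.95 ± 0.11 and SLC7A5 by 1.39 ± 0.13.

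The difference between the 2 day changes in 6T-CEM was called for 1 of 20978 genes (0.00477%) by edgeR's quasi-likelihood test, against 2157 at an unadjusted p under 0.05 and 218 by DESeq2. That gene was CDHR1, a cadherin-related membrane protein. With sh-NC it was at 60.4 and 55.3 CPM at day 5 and 12.96 and 12.6 CPM at day 10, and with sh-SH2D1A at 29.6 and 27.5 CPM at day 5 and 33.7 and 34 CPM at day 10, so that its day change was higher by 2.43 ± 0.15 with the knockdown (adjusted p = 0.00068). Without the first day 5 sh-SH2D1A library 1476 genes were called instead. The chi-square per degree of freedom between the 2 day 5 knockdown libraries was 24.6, against 5.01 to 10.2 in the other 7 groups. SH2D1A, the target of that hairpin, fell by 0.29 with sh-NC and rose by 0.43 ± 0.12 with sh-SH2D1A. The test of that difference gave 0.74 ± 0.12 and did not pass (adjusted p = 0.108). The difference was called by DESeq2 (0.72, adjusted p = 0.00021) and with all 16 libraries in the fit (0.72, adjusted p = 0.0181). It was also called in the fit adjusted for length and GC share (0.85, adjusted p = 0.00065). Without the first or the second day 5 sh-SH2D1A library the difference was 0.62 or 0.82.

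Jurkat cells with sh-NC, over the 2 days from day 8 to day 10, changed in fewer genes: 400 of 19067 (2.10%) were higher and 337 (1.77%) lower. The interval is shorter than the 5 days of 6T-CEM. Of the 4387 genes higher in control 6T-CEM and tested in both, 1674 (38.2%) had the same sign in Jurkat. Among them 67 were called higher in Jurkat, and 180 of the 4387 were called lower. Of the 4193 lower genes 1612 (38.5%) had the same sign, with 54 called lower and 186 called higher in Jurkat. Glycolysis fell in both lines, with 14 of 23 genes lower in Jurkat and a median of -0.50. PGK1 changed by -1.02 ± 0.07 in Jurkat and -0.94 ± 0.04 in 6T-CEM, and ENO1 by -1.09 ± 0.08 and -0.73 ± 0.04. Hypoxia genes fell in 6 of 23 in Jurkat, with a median of -0.14. P4HA1 changed there by -0.29 ± 0.09, and the difference between the lines, Jurkat minus 6T-CEM, was 1.76 ± 0.11 (adjusted p = 4.19e-06). FAM162A changed by -1.06 ± 0.08 in Jurkat and -1.33 ± 0.07 in 6T-CEM, and their difference did not pass (0.28 ± 0.11, adjusted p = 0.0634).

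Ribosome assembly and mitosis genes went opposite ways in the lines. The difference between the day changes was called higher in Jurkat for 3609 of 20800 genes (17.4%) and lower for 3681 (17.7%). Ribosome assembly genes fell in 25 of 43 and rose in none in Jurkat, with a median of -0.40, and the difference was called lower for 41 of 43. NCL changed by -0.29 ± 0.07 in Jurkat against 0.87 ± 0.04 in 6T-CEM, a difference of -1.15 ± 0.07 (adjusted p = 4.15e-06). Mitosis genes rose in 27 of 46 in Jurkat and fell in none, with a median of 0.37, and the difference was called higher for 40. MKI67 changed by 0.86 ± 0.10 in Jurkat, a difference of 1.28 ± 0.11 (adjusted p = 2.14e-05). Of 79 cytosolic ribosomal protein genes none was called in Jurkat by edgeR's quasi-likelihood test or by DESeq2, and 1 was lower at an unadjusted p under 0.05. Their median was -0.03 in Jurkat against 0.79 in 6T-CEM, and the difference was called lower for 69 of 79. With the adjustment for length and GC share the difference was called higher for 3386 of 19369 genes (17.5%) and lower for 3224 (16.6%), among them lower for 42 of 43 ribosome assembly genes and higher for 40 of 46 mitosis genes.

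**Figure D5:**
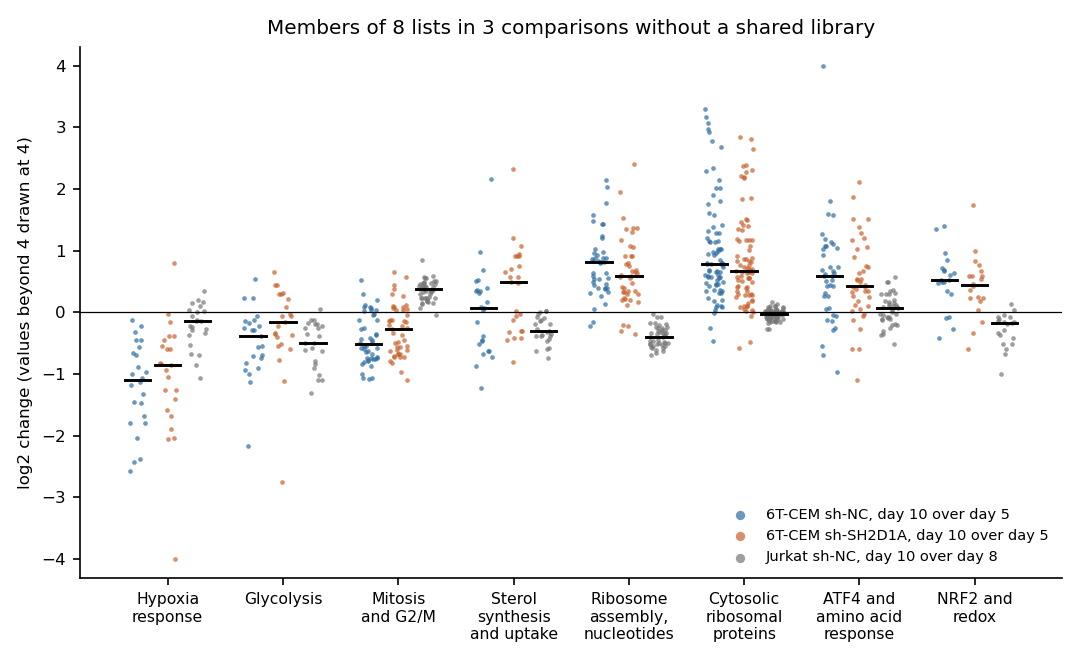
Log2 change of each member (points, with the median as a black bar) of 8 gene lists in 6T-CEM sh-NC (blue, day 10 over day 5), 6T-CEM sh-SH2D1A (orange, day 10 over day 5) and Jurkat sh-NC (grey, day 10 over day 8), drawn at 4 where a value is larger. Hypoxia medians are -1.10, -0.85 and -0.14, ribosome assembly medians 0.81, 0.59 and -0.40, and mitosis medians -0.52, -0.26 and 0.37. In the adjusted fit, which is not drawn, the mitosis medians are -0.22, 0.02 and 0.38.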

How the data were processed

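RNA sequencing libraries of total RNA were compared at the level of gene counts. The authors deposited raw counts per gene for each library, and HISAT2 2.2.0, StringTie and the hg38 build are named in the submitters' processing notes without their roles. For the annotation, the strand setting and the counting step, nothing is given in the sources used here. Each table holds 64252 gene identifiers, of which 56105 had a symbol in the reference table and 56591 were in GENCODE 29, the source of transcript length and GC share. Identifiers with no symbol held 1.92 to 2.20% of the counts of the 4 libraries.

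Libraries were grouped by the labels' cell line, hairpin and day, with 2 libraries per group, and the tables of both days were joined by gene identifier. Genes passed edgeR's filterByExpr with a minimum count of 10, and counts were scaled by TMM and tested with edgeR 4.0.16 (R 4.3.3) quasi-likelihood tests, each comparison on its own 4 libraries and each difference of day changes on 8. A gene was called at a Benjamini-Hochberg adjusted p under 0.05. Errors beside log2 fold changes are standard errors, computed as the fold change divided by the square root of F. The test was run on simulated counts of 19620 genes with 200 changed in 6T-CEM sh-NC: it found 38% of the changed genes at 1.5-fold, 51% at 2-fold and 76.5% at 4-fold, with 15.6, 8.93 and 12.1% of the calls false. In the comparison itself 8808 genes were called, far more than the 200 changed in the simulation. These shares therefore do not describe recovery or false calls in the comparison itself.

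The genes named are SH2D1A and CHI3L2, the 15 largest rises and 15 largest falls among called protein-coding genes with a mean of at least 5 CPM in the higher group and no overlap between the days, up to 6 members of each list by adjusted p, further members of lists described by role, and 6 genes per direction in each difference test. Not every list member that this rule allows is reported here. The members and the 41 gene lists were chosen with earlier results of these data known. Alternatives were DESeq2 1.42.0, its size factors, other count filters, a replicate block, more libraries in the fit, a threshold of 1.5-fold, mitochondrial genes left out, each library left out and, chosen after seeing the data, an adjustment for transcript length and GC share (splines with 5 degrees of freedom) and transcripts of at least 1500 bases only.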

Additional observations from a re-analysis of the deposited data

Results flagged for a closer look

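The day change of CDHR1 differed between the hairpins in 6T-CEM by a test of the difference itself (2.43 on the log2 scale, sh-SH2D1A minus sh-NC).

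Tests of the difference between the lines, Jurkat minus 6T-CEM, picked out 6 genes in each direction by size. The difference was 5.01 for DMD, 3.6 for CDRT4, 3.22 for FOS, 2.97 for ACSBG1, 2.90 for HSD17B13 and 2.83 for SH3BP1. It was -12.2 for ZNF497, -4.79 for PTPRCAP, -4.37 for BOLA2, -4.12 for BOLA2B, -3.86 for MXRA8 and -3.61 for POLR2L. The value of ZNF497 rests on libraries at 0 and on the prior count of the fit, so it is no bound. The value of DMD rests on Jurkat means of 0 CPM at day 8 and 0.104 CPM at day 10. In 6T-CEM DMD had means of 5.64 CPM at day 5 and 4.59 CPM at day 10. The size of the DMD difference therefore depends on the prior count as well. The call of CDRT4 was lost without the second day 8 or the second day 10 Jurkat library (adjusted p = 0.0586 and 0.0901), that of DMD without the first day 10 Jurkat library (adjusted p = 0.0619), and that of PTPRCAP by DESeq2 (adjusted p = 0.140).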

How the results depend on the processing

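The 8808 calls of the control comparison stayed within 1.5 times under every alternative except the 1.5-fold threshold, which left 2095. They numbered 6334 to 9812 when 1 library was left out, 7257 with the adjustment for length and GC share and 6577 among transcripts of at least 1500 bases. The 1 call of the difference between hairpins became 218 with DESeq2, 150 with all 16 libraries in the fit, 542 with the adjustment, and 1 to 1476 with 1 library left out. The 7290 calls of the difference between lines became 2363 at the 1.5-fold threshold and 5552 to 7342 with 1 library left out. The cause of these moves was not tested, apart from the stricter threshold.

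With the adjustment for length and GC share PFKP turned to -0.14, CDC20 to -0.12 and PPAT to 0.36. EPAS1, which was not called, ranged from -0.49 to 0.34 with 1 library left out. Calls of under 10 genes in a list moved most with 1 library left out.

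With the replicate number as a block 8640 genes were called in the control comparison, 7900 with sh-SH2D1A, 695 in Jurkat, 1 in the difference between hairpins and 6717 in the difference between lines. Same-numbered libraries did not deviate together (correlations of -0.02, 0.03 and 0.01 in the control, knockdown and Jurkat comparisons), so the numbers were not used as pairs. With 2 libraries per group a leave-one-out fit has a lone library, which is assumed to vary like the other group.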
